A study of Mus musculus with 9 samples.

Results

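Siglech, Bst2, Tcf4, Ly6d, Spib, Runx2, Pacsin1 and Ptprs are genes by which plasmacytoid DCs (pDCs) are commonly recognised, and they were followed here in cells sorted as pre-cDCs, the committed precursors of conventional DCs. The 8 genes were taken by symbol from a table of 51912 genes, and all 8 passed the filter on low counts, among 13016 genes tested in bone marrow (BM) and 13468 genes tested across tissues. The pre-cDCs came from mixed BM chimeras, in which lethally irradiated C57BL/6 hosts carrying both CD45.1 and CD45.2 had received equal parts of WT BM (C57BL/6, CD45.1) and DNGR-1 KO BM (Clec9aCre/Cre, CD45.2). Every library therefore came from donor cells that had developed in an irradiated host, and each was made from cells pooled from 2 mice. BM was sampled 3 times per genotype, and spleen once from WT and 2 times from DNGR-1 KO, with sample numbers as in the labels. For WT samples the labels disagree on the CD45 allele, with CD45.2 in the description and CD45.1 elsewhere, and they give no age, sex or time after transplantation. The DNGR-1 KO allele carries Cre at the Clec9a locus, and genotype cannot be told apart from the CD45 allele of the donor.

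pDCs are the DCs that release large amounts of type I interferon when TLR7 or TLR9 meets viral nucleic acid, and they arise in BM from progenitors shared in part with cDCs and in part with lymphoid cells. The E protein TCF4 is needed to make and keep a pDC, and its activity is opposed by ID2, which favours cDCs. SPIB and RUNX2 act with TCF4 in the pDC program, RUNX2 being needed for pDCs to leave the BM. Precursor cells that carry Siglec-H or Ly6D can still give rise to pDCs, and some Siglec-H+ precursors become cDCs.

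The sort gate bears on how these genes are read. The lineage cocktail held antibodies to Ly6D and B220 beside those to T, B and NK cells, granulocytes and erythroid cells, and the lineage-negative CD45+ cells were then gated as CD11c+, MHCII-, CD43+ and CD135+. Mature pDCs carry B220, and Ly6D protein was itself in the gate, so the gate was set to exclude cells with either protein on their surface. How complete this was is not known, and transcripts of T cells, also gated against, remained in spleen as given below. In bulk samples, fewer cells of a type and less RNA per cell cannot be told apart, and this holds for every value below.

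The pre-cDC label was set beside 6 markers (Flt3, Itgax, Zbtb46, Kit, Spn and Csf1r). Their summed level was 781.8 to 1872 CPM in BM and 1053 to 1637 CPM in spleen, where CPM are counts scaled to the library size after TMM normalisation. Flt3 (CD135), Itgax (CD11c) and Spn (CD43) encode proteins of the gate, so they are no independent check. Of the 6 markers 0 were called between tissues. Zbtb46 alone measured 25.61 to 57.98 CPM in BM, 21.98 CPM in WT spleen and 26.66 and 7.836 CPM in DNGR-1 KO spleen. Depth was 17103806 to 23722298 counts per sample. Clec9a, the gene disrupted in the DNGR-1 KO, differed by a log2 value of -10.44 in BM (edgeR, adjusted p = 9.38e-06). T cell markers summed to 3.323 to 13.02 CPM in BM and to 609.1 CPM in WT spleen, 793 CPM in DNGR-1 KO spleen sample 1 and 2555 CPM in sample 2, and NK cell markers to 46.68 to 108.2 CPM in BM and 769.4, 825.1 and 1862 CPM in these spleen samples. Neutrophil markers went the other way, from 932.1 to 2663 CPM in BM to 0.3367 to 4.943 CPM in spleen. All 6 T cell markers and the 4 NK cell markers tested were called higher in spleen. Ncr1 and Klrb1c, the NK cell markers not tested, had at most 12 counts in BM. In WT spleen and DNGR-1 KO spleen samples 1 and 2, Ncr1 had 0, 281 and 253 counts and Klrb1c 0, 266 and 0. Klrd1 (516.7 CPM) and Nkg7 (222 CPM) made up most of the NK cell sum in WT spleen. The 5 neutrophil markers tested were called lower, with Elane and S100a8 at 0 counts in spleen. Ly6g was not tested, with at most 19 counts in BM and 0 in spleen. Mpo, at 694.8 to 2101 CPM, was most of the BM sum, which does not by itself show neutrophils. Of 3 tested B cell markers 1 was called lower (Igll1). The 10 B cell markers summed to 41.95 to 69.25 CPM in BM and 37.28, 48.37 and 34.73 CPM in the spleen samples. The B cell factors Pax5 and Ebf1 had at most 3 counts in any sample. Ms4a1 had at most 1 count in BM, 0 in WT spleen, and 213 and 222 counts in DNGR-1 KO spleen. Plasma cell markers summed to 2.926 to 12.34 CPM in BM and 44.91, 0 and 7.497 CPM in the spleen samples. Of the 3 macrophage markers tested (Adgre1, Cd14 and Fcgr1), Adgre1, which encodes F4/80, was called higher in spleen (log2 fold change 4.29, adjusted p = 0.00138 by edgeR), from 1.755 to 10.09 CPM in BM to 67.17 to 124.2 CPM. The spleen samples therefore differed from BM in markers of T cells, NK cells and neutrophils and in this macrophage marker. Single B, plasma and NK cell markers differed unevenly between spleen samples. The part of all these markers in any tissue difference below was not tested.

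**Figure D1:**
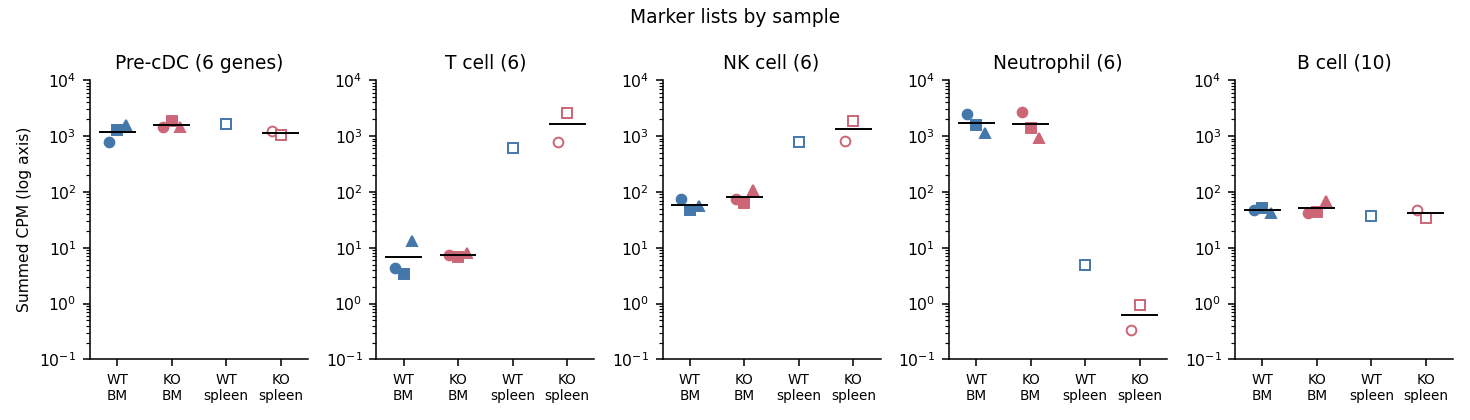
Summed TMM-normalised CPM (log axis) of 5 marker lists in each sample, with filled symbols for BM, open symbols for spleen, blue for WT, red for DNGR-1 KO, symbol shape for the sample number and a line at the mean where a group has more than 1 sample. Pre-cDC marker sums lie between 781.8 and 1872 CPM throughout, T and NK cell marker sums are higher in all 3 spleen samples, and neutrophil marker sums are lower there.

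Compared per kilobase of exon, so that genes of different length can be set side by side, Bst2 was the most abundant of the 8 in BM, with a mean level of 404.5 ± 86.2 CPM per kb (SD, n = 6). Siglech (38.2 CPM per kb), Spib (34.9 CPM per kb), Runx2 (27.4 CPM per kb) and Ly6d (19.1 CPM per kb) formed a middle group in which the ranges of each neighbouring pair overlapped over the 6 BM samples. Tcf4 followed at 7.24 CPM per kb, over an exon union of 27382 bases that counts every annotated isoform, then Ptprs at 2.33 and Pacsin1 at 0.229 CPM per kb. Every sample kept the order Ly6d, Tcf4, Ptprs, Pacsin1 in BM, with ranges that did not overlap from one gene to the next. All levels below are CPM without division by length, and they compare samples within a gene.

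Siglech encodes Siglec-H, a sialic acid-binding type lectin that signals through the adaptor DAP12 (Tyrobp) and is widely used to identify mouse pDCs. It lies on chromosome 7 (GRCm38, 55768178 to 55778925, plus strand). The 250 bases before the start of this defining pDC gene are printed here with their 3 E-boxes (CANNTG, the same on both strands), the motif that TCF4 and other E proteins bind, marked in capitals (RefSeq, GRCm38.p6, chr7:55767934-55768183, plus strand):
Siglech: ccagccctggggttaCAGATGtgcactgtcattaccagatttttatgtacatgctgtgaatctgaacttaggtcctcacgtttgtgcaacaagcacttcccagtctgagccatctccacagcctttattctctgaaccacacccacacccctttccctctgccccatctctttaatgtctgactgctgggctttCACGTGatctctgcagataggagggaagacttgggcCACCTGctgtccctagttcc
The E-boxes begin 235, 56 and 20 bases before the start, and the last of them reads CACCTG. An E-box occurs in 66.2% of the 32841 promoter windows of this length and CACCTG, on either strand, in 17.2%, so neither is rare. Among the other members, 1 of the Ptprs windows held 4 E-boxes and the other 0, Spib held 2, Bst2 and Runx2 1 each, and Pacsin1 0.

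Siglech measured 120.5, 86.97 and 132.2 CPM in WT BM samples 1 to 3 and 122.1, 128.7 and 185.9 CPM in DNGR-1 KO BM. In spleen it measured 98.09 CPM in WT and 82.89 and 25.84 CPM in DNGR-1 KO samples 1 and 2. The BM genotypes overlapped, the highest BM value was DNGR-1 KO sample 3, and DNGR-1 KO spleen sample 2 was far below every other sample. That sample also had the highest T and NK cell marker sums. Among the spleen samples it was lowest for Bst2, Tcf4 and Ptprs too, but highest for Spib, Runx2 and Pacsin1. The bearing of the marker sums on these values was not tested.

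Bst2, tetherin, holds enveloped viruses at the cell surface. Its antibody PDCA-1 marks pDCs in resting mice, and interferon induces it in many other cells. The gene lies on chromosome 8 (71534255 to 71537456, minus strand). Its promoter is printed because it holds an interferon-response motif, GAAA followed after any 2 bases by a second GAAA, in capitals (RefSeq, GRCm38.p6, chr8:71537473-71537722, minus strand):
Bst2: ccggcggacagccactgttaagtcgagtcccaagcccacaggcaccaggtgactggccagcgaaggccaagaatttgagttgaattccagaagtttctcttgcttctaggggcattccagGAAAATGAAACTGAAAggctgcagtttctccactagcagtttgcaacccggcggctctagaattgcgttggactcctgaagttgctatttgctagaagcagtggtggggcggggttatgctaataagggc
The capitals are 2 overlapping matches on the gene's own strand, beginning 130 and 124 bases before the start. The motif, searched on both strands, occurs in 2.98% of promoter windows, and Bst2 was the only one of the 6 members with a window in the table that had a match. Windows for Ly6d and Tcf4 are not shown here.

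Bst2 measured 430.4, 281 and 320.9 CPM in WT BM and 293.8, 395.5 and 470.1 CPM in DNGR-1 KO BM. WT spleen had 548 CPM, the highest of the 9 samples, and DNGR-1 KO spleen 331 and 274.8 CPM, of which the second was the lowest. The spleen samples thus bracketed all BM samples.

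Ly6d is a GPI-anchored protein of B cell-biased lymphoid progenitors and of pDCs and their lymphoid precursors. It lies on chromosome 15 (74762056 to 74763620, minus strand). It measured 15.91, 9.606 and 18.15 CPM in WT BM and 12.21, 8.681 and 20.76 CPM in DNGR-1 KO BM, from 178 to 414 counts a sample. WT spleen had 0 counts, DNGR-1 KO spleen sample 1 had 35 counts (1.964 CPM) and sample 2 had 1 count. The lowest BM sample was at least 48.6-fold above the 0.179 CPM that 3 counts stand for in WT spleen. Ly6d transcript was therefore present in all 6 BM samples although the gate was set against Ly6D+ cells, and near or at the limit of detection in 2 of 3 spleen samples.

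Ptprs is a receptor tyrosine phosphatase that binds heparan and chondroitin sulfate proteoglycans and restrains cytokine release by pDCs. It lies on chromosome 17 (56412426 to 56476483, minus strand). It measured 25.31, 36.66 and 42.1 CPM in WT BM, 35.2, 40.82 and 29.94 CPM in DNGR-1 KO BM, 17.33 CPM in WT spleen and 26.88 and 13.93 CPM in DNGR-1 KO spleen. Only DNGR-1 KO spleen sample 1 reached into the BM range, just above its lowest sample.

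Tcf4, the E protein that directs the pDC program, lies on chromosome 18 (69343356 to 69689079, plus strand). It was the steadiest of the 8 genes in BM: 197.1, 183.2 and 218.4 CPM in WT and 196.3, 221.5 and 173.7 CPM in DNGR-1 KO. Spleen values were 273.5 CPM in WT, above all BM samples, and 155.4 and 116 CPM in DNGR-1 KO, below all of them.

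Spib, an ETS factor shared by pDCs and B cells, lies on chromosome 7 (44525993 to 44532071, minus strand). It measured 47.92, 89.57 and 109.7 CPM in WT BM, 95.72, 159.4 and 97.43 CPM in DNGR-1 KO BM, 41.99 CPM in WT spleen, and 29.41 and 79.67 CPM in DNGR-1 KO spleen. WT BM sample 1 was lowest in BM for Spib, Runx2 and Ptprs, and it was also the sample with the lowest pre-cDC marker sum.

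Runx2, the RUNT factor best known from bone and high in pDCs, lies on chromosome 17 (44495987 to 44814797, minus strand) and shares 519 exon bases with Runx2os1 on the opposite strand, whose reads could not be separated here. Its promoter is printed for comparison with that of Siglech, since Runx2 was the 1 member that edgeR called between tissues. It holds 1 E-box, in capitals, that begins 78 bases before the start (RefSeq, GRCm38.p6, chr17:44814628-44814877, minus strand):
Runx2: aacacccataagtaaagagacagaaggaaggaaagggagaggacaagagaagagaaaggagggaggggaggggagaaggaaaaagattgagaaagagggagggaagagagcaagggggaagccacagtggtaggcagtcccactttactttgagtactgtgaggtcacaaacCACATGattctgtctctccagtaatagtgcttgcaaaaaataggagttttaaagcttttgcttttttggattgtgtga
Neither it nor any other member window held GAGGAAGT, an ETS motif of the kind SPIB and PU.1 bind, which occurs in 2.44% of promoter windows. Runx2 measured 173.1, 266.7 and 246 CPM in WT BM and 222.8, 294.3 and 247.6 CPM in DNGR-1 KO BM, against 100.8 CPM in WT spleen and 55.33 and 111.1 CPM in DNGR-1 KO spleen. All 3 spleen samples were below all 6 BM samples.

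Pacsin1, a membrane-bending adaptor of neurons that pDCs also use for interferon responses through TLR7 and TLR9, lies on chromosome 17 (27655509 to 27711482, plus strand). It was the scarcest, with 17 to 46 counts in each BM sample: 1.256, 2.389 and 1.475 CPM in WT and 1.252, 1.756 and 0.8525 CPM in DNGR-1 KO. Spleen had 4.943 CPM in WT and 2.525 and 6.226 CPM in DNGR-1 KO, all above BM, from 83, 45 and 147 counts.

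**Figure D2:**
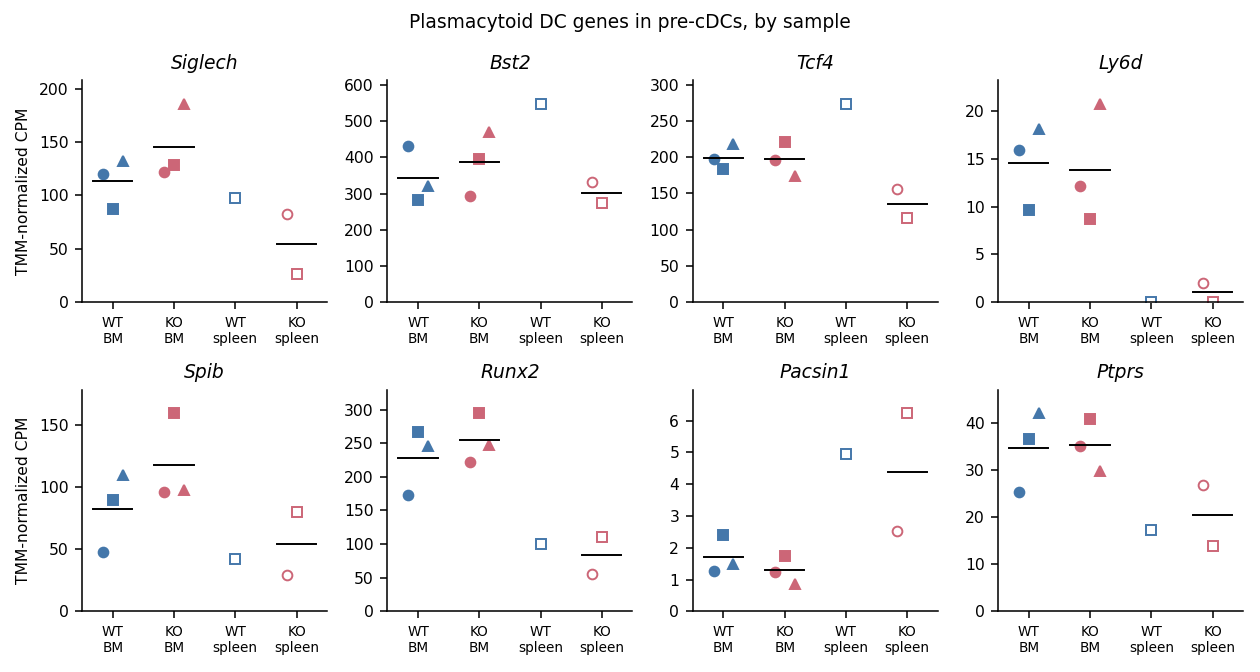
TMM-normalised CPM of the 8 genes in each of the 9 samples, each panel with its own axis from 0; filled symbols are BM, open symbols spleen, blue WT, red DNGR-1 KO, shape the sample number (circle 1, square 2, triangle 3), and lines are means of groups with more than 1 sample. The BM genotypes overlap for all 8 genes, Runx2 and Ly6d are lower in every spleen sample and Pacsin1 higher. The share of all genes without overlap between tissues is not given here, so this describes single genes only.

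The comparison of DNGR-1 KO with WT in BM asks whether loss of the receptor alters these genes in the precursors, and it had replicates in both arms. None of the 8 genes passed the test (edgeR quasi-likelihood test on all genes, Benjamini-Hochberg threshold 0.05), none had an unadjusted p under 0.05, and 0 of 8 had non-overlapping genotypes. Over all 13016 genes tested, 4 were called (0.0307%), 498 had an unadjusted p under 0.05, and the ranges of the genotypes did not overlap for 1244 genes (9.56%). DESeq2 and limma-voom also called 0 of the 8.

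The estimate farthest from 0 was that of Spib, at a log2 fold change of 0.51 (SE 0.34, adjusted p = 0.861 by edgeR), followed by Pacsin1 at -0.41 (SE 0.66, adjusted p = 0.917 by edgeR) and Siglech at 0.36 (SE 0.26, adjusted p = 0.861 by edgeR). The 95% intervals ran from 0.846-fold to 2.4-fold for Spib and from 0.859-fold to 1.92-fold for Siglech. Tcf4 had the narrowest interval, 0.715-fold to 1.36-fold around a log2 fold change of -0.02, and Ptprs ran from 0.669-fold to 1.54-fold around 0.02. For Bst2 and Runx2 the intervals were 0.755-fold to 1.67-fold and 0.77-fold to 1.61-fold. The scarce genes were the least certain, with 0.522-fold to 1.74-fold for Ly6d and 0.272-fold to 2.08-fold for Pacsin1. A doubling of Tcf4, Ptprs, Bst2, Runx2, Ly6d or Siglech thus lay outside the interval, while one of Spib or Pacsin1 did not.

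The wider pDC and DC fate programs had no call in BM either. Of 13 further pDC genes 11 were tested, and 0 passed the edgeR test in either direction, as did 0 of 11 genes for nucleic acid sensing, 0 of 11 factors of DC fate and 0 of 12 interferon-stimulated genes tested. In these 4 lists 0 genes had an unadjusted p under 0.05 by edgeR, and DESeq2 and limma-voom called 0 as well, with 1 fate factor at an unadjusted p under 0.05 by limma-voom. Ifnb1, Ifna1, Ifna2, Ifna4 and Ifna5, the interferon genes looked up, had 0 counts in all 9 samples, which allows up to 0.126 to 0.175 CPM a sample. Medians of the log2 fold change were 0.09 for the 8 genes, 0.28 for the further pDC genes and 0.44 for the fate factors, beside 0.00 for all genes tested.

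**Figure D3:**
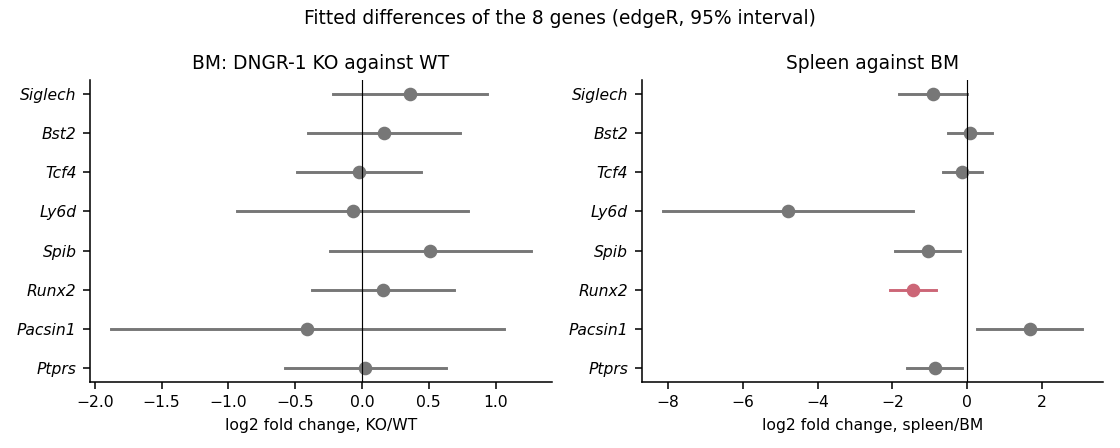
Fitted log2 fold changes of the 8 genes with 95% intervals from edgeR, for DNGR-1 KO against WT in BM (left, 3 against 3 samples) and spleen against BM (right, 3 against 6 samples, genotype in the fit); red marks an adjusted p under 0.05. All 8 intervals on the left include 0, and on the right Runx2, at -1.44, is the only gene called.

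Between tissues 1 of 8 genes was called lower in spleen, beside 12.3% of all genes tested (1651 of 13468), and 0 of 8 were called higher, beside 7.28% (980), so the share called was near that of all genes. Runx2 was the gene called, with a log2 fold change of -1.44 (SE 0.27, adjusted p = 0.00647 by edgeR), which is 2.72-fold lower in spleen with a 95% interval of 0.241-fold to 0.564-fold. It was called in all 9 fits that left out 1 sample, with values of -1.65 to -1.18. The median log2 fold change of all genes tested was -0.18, so that a member's value is read against that shift, and the median of the 8 was -0.89.

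Ly6d had the largest estimate, a log2 fold change of -4.79 (SE 1.49), and missed the threshold (adjusted p = 0.0510 by edgeR). It was called in the fit without DNGR-1 KO spleen sample 1, the only spleen sample with more than 1 count of it, at -8.88 (adjusted p = 0.00104 by edgeR). DESeq2 called 4 of the 8, namely Ly6d, Runx2 and Ptprs lower and Pacsin1 higher, and limma-voom called Ly6d and Runx2.

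Spib, Siglech and Ptprs were estimated lower in spleen and did not pass, with log2 fold changes of -1.05 (SE 0.39, adjusted p = 0.0874), -0.91 (SE 0.41, adjusted p = 0.151) and -0.87 (SE 0.33, adjusted p = 0.0978) by edgeR. For Spib and Siglech 2 of the 3 spleen samples were below all BM samples, and the same held for Ptprs. Pacsin1 was estimated higher, at 1.68 (SE 0.63, adjusted p = 0.0913 by edgeR), with a 95% interval of 1.2-fold to 8.47-fold. Unadjusted, 5 of the 8 had a p under 0.05, beside 4517 of 13468 genes.

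Bst2 and Tcf4 did not pass either and had estimates near 0, at 0.08 (SE 0.26) and -0.13 (SE 0.23), with intervals of 0.702-fold to 1.58-fold and 0.641-fold to 1.31-fold. Their sign rested on single libraries. Without WT spleen sample 2 the Bst2 value was -0.353, and without DNGR-1 KO spleen sample 2 the Tcf4 value was 0.081.

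Members were also set against another gene of the same sample, with lengths divided out. The 11 ratios were chosen after the values had been seen, so they are given as descriptions without a test. Against Flt3, the receptor (CD135) used in the gate, Runx2 was 0.339 to 0.492 in BM and 0.0712 to 0.22 in spleen, 3.25-fold lower on average. Siglech against Flt3 was 0.419 to 0.776 in BM and 0.133 to 0.3 in spleen, 2.47-fold lower. Ptprs against Flt3 was 0.026 to 0.0398 in BM and 0.012 to 0.0204 in spleen, 2.15-fold lower. The tissues did not overlap in these 3 ratios.

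Tcf4, Bst2 and Spib against Flt3 overlapped between tissues, and were on average 1.35-fold, 1.13-fold and 2.37-fold lower in spleen. Pacsin1 against Flt3 was higher in spleen by a log2 value of 1.37, and its ranges overlapped as well. Siglech against Tyrobp, the adaptor through which Siglec-H signals, was 0.0239 to 0.0336 in BM and 0.00988 to 0.0189 in spleen, 1.81-fold lower. Tyrobp itself did not pass the edgeR test (log2 fold change -0.22, adjusted p = 0.675), and it is also expressed by NK cells.

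For 2 of the transcription factors the comparison gene was a relative. The ratio of Runx2 to Runx1 was 3.32 to 5.92 in the 6 BM samples and 1.34 to 1.98 in the 3 spleen samples, 2.52-fold lower. The ratio of Spib to Spi1 was 0.484 to 0.834 in BM and 0.168 to 0.811 in spleen, 1.84-fold lower with overlapping ranges. Neither Runx1 (log2 fold change -0.15, adjusted p = 0.724 by edgeR) nor Runx3 (-0.06, adjusted p = 0.942 by edgeR) passed the test between tissues. Runx1 measured 56.91 to 101.8 CPM in BM and 56.12 to 79.75 CPM in spleen, and T cells express it too.

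Tcf4 was set against Id2, which encodes the inhibitor that keeps E proteins off DNA. Id2 measured 81.85 to 354.7 CPM in BM and 482.3, 1343 and 490 CPM in the spleen samples, so every spleen sample exceeded every BM sample (log2 fold change 1.63, SE 0.51, adjusted p = 0.0526 by edgeR). The ratio of Tcf4 to Id2 was 0.0436 to 0.214 in BM and 0.0103 to 0.0505 in spleen, 4.06-fold lower on average, with overlapping ranges. Id2 is high in NK and T cells as well as in cDC1s. Within BM the highest and the lowest ratio were both from DNGR-1 KO, in samples 1 and 3.

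**Figure D4:**
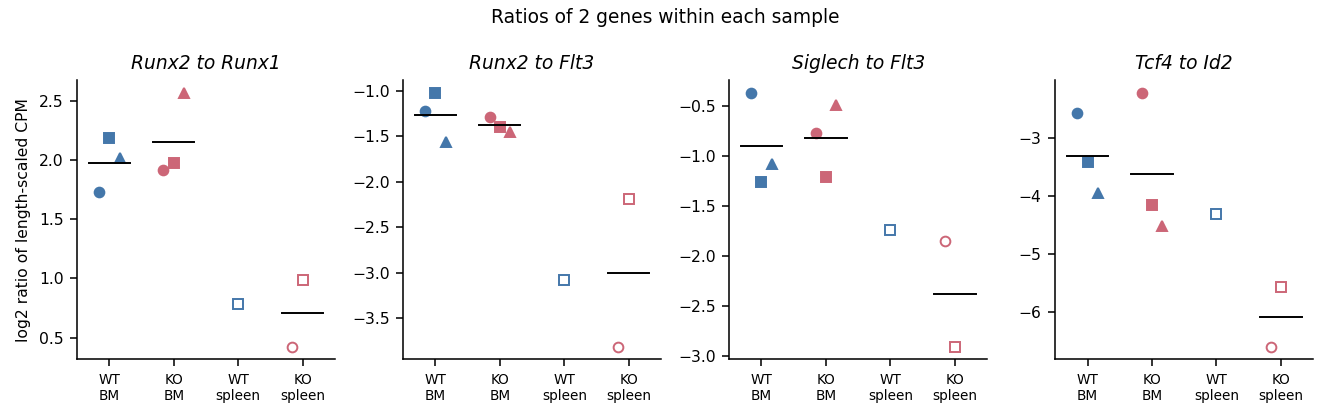
Ratios of 2 genes within each sample on a log2 scale, computed from CPM per kilobase of exon; symbols as in the plot of CPM by sample, with lines at group means. Runx2 to Runx1, Runx2 to Flt3 and Siglech to Flt3 are lower in all 3 spleen samples than in all 6 BM samples, and Tcf4 to Id2 overlaps through WT spleen.

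The other genes of the pDC list moved in both directions. Of 11 tested, Lag3, an inhibitory receptor of activated T cells that a subset of pDCs also carries, was called higher in spleen (log2 fold change 2.58, adjusted p = 3.76e-04 by edgeR), from 8.256 to 13.37 CPM in BM to 56.85 to 80.6 CPM. Dntt, the lymphoid DNA polymerase TdT, was called lower, at 7.321 to 112.1 CPM in BM and 0, 0 and 1 counts in spleen. Cox6a2, a cytochrome oxidase subunit found in pDCs, was called lower as well, at 4.466 to 10.65 CPM in BM and 1.012, 0 and 0 CPM in spleen. Ccr9, a gut-homing receptor of mature pDCs, did not pass (log2 fold change 1.52, adjusted p = 0.0785 by edgeR) and was highest in WT spleen at 31.03 CPM. The median of the 11 was -0.20, near that of all genes.

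The fate factors and the sensing pathway were also mixed. Of 11 fate factors, Id3, another ID inhibitor, was called higher in spleen (log2 fold change 3.41), and Irf8, which pDCs and cDC1s both need, was called lower (-1.35, adjusted p = 0.0202 by edgeR), at 2059 to 3421 CPM in BM and 623.5 to 1677 CPM in spleen. Bcl11a and Zeb2, which pDC development also needs, did not pass. Of 11 sensing genes 4 were called higher (Tlr7, Myd88, Irak4 and Irf7) and 1 lower (Ifnar2). Tlr7 was uneven within spleen, at 47.76 CPM in WT and 1.347 and 21.43 CPM in DNGR-1 KO, and 0 to 2.339 CPM in BM. Tlr9, the DNA sensor of pDCs, was at most 2.243 CPM in any sample.

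Among 16 tested relatives of the members, the ETS factor Spic of red pulp macrophages was called higher (log2 fold change 5.93, adjusted p = 0.0305 by edgeR). Spic was uneven within spleen, at 1.191 CPM in WT and 25.65 and 46.97 CPM in DNGR-1 KO. Siglece and Ly6a were called higher too, and Ly6e was called lower (-0.69, adjusted p = 0.0240 by edgeR). Tcf3 and Tcf12, the other E proteins, and Spi1, which encodes PU.1, did not pass.

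Bst2 is both a pDC marker and a target of interferon, so it was set beside 13 interferon-stimulated genes. Of these, 5 were called higher in spleen (Ifit3, Rtp4, Rsad2, Usp18 and Oas1a) and 0 lower, beside 7.28% and 12.3% of all genes tested. Their log2 fold changes ran from 1.13 for Oas1a to 5.57 for Ifit3, and the median over the 13 was 1.21. The spleen samples were uneven for several of the 13. Isg15 measured 0.4169 CPM in WT spleen and 17 and 11.22 CPM in DNGR-1 KO, beside 2.644 to 4.112 CPM in BM. In the same spleen order, Ifit2 measured 55.39, 0 and 4.574 CPM and Ifi44 9.648, 0 and 0 CPM. Bst2, at a log2 fold change of 0.08, was below 11 of the 13 and above Mx1 and Ifi44. The motif printed for Bst2 was found in 5 of the 9 interferon-stimulated genes with a promoter window, and in 3.46% of all gene symbols with one.

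**Figure D5:**
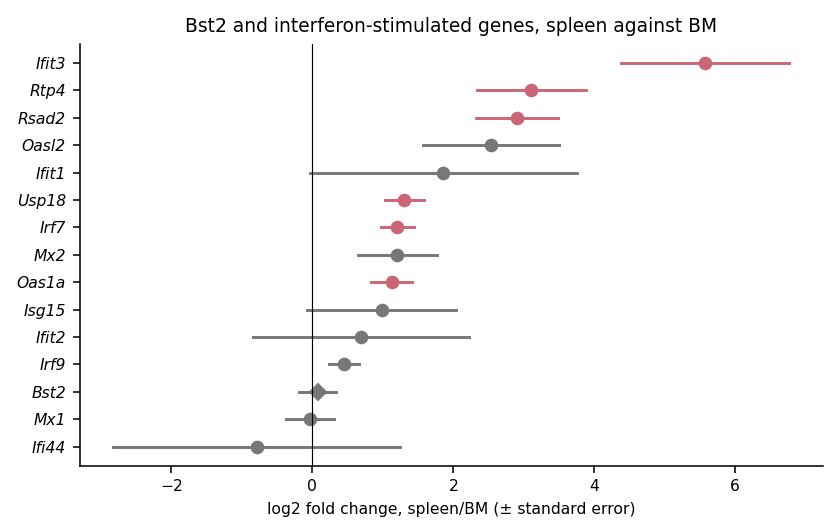
Log2 fold changes, spleen against BM, of 13 interferon-stimulated genes, Irf7 and Bst2 (diamond), with standard errors from edgeR over 6 BM and 3 spleen samples; red marks an adjusted p under 0.05. Irf7 and 5 of the 13 genes are called higher, while Bst2 lies at 0.08.

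Spleen genotypes are given as values without a test of their own, WT spleen being 1 sample. Both DNGR-1 KO samples were below WT for Siglech, Bst2 and Tcf4, as were 28.9% of all genes tested, and both were above WT for Ly6d, as were 33.1%. For Ly6d, DNGR-1 KO sample 2 had 1 count against 0 in WT, under the limit of 3 counts, so this direction is not a measured difference. The log2 differences from WT were -0.24 and -1.92 for Siglech, -0.73 and -0.996 for Bst2, and -0.82 and -1.24 for Tcf4. Spib, Runx2, Pacsin1 and Ptprs had one DNGR-1 KO sample on each side. From DNGR-1 KO sample 1 to sample 2 the log2 difference was -1.68 for Siglech and 1.43 for Spib.

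Whether the genotype difference itself changed with tissue was tested as an interaction. Of the 8 genes 0 were called, beside 8.85% of all genes tested (1192). Unadjusted, 3 of the 8 had a p under 0.05 by edgeR, beside 3001 of 13468 genes. The 3 were Tcf4 (-0.99, SE 0.36, adjusted p = 0.145), Bst2 (-1.02, SE 0.44, adjusted p = 0.217) and Ly6d (7.36, adjusted p = 0.204), all on the log2 scale by edgeR. The Ly6d value compares a spleen sample with 0 counts and is no estimate of a fold. Limma-voom called 0 of the 8 and 0 of all genes. The fit rests on 1 WT spleen sample, assumed to vary like the other groups.

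The patterns of the members across the 9 samples were compared with those of all genes. Likeness was measured as the root mean square difference between 2 genes' log2 CPM, each centred on its own mean, among 13467 other genes. The nearest members were Bst2 and Tcf4, at 0.297, and Spib and Runx2, at 0.379, yet Runx2 ranked 47 among the genes most like Spib, and Spib ranked 68 among those most like Runx2. The genes most like Runx2 were Dtx2 (0.141), Racgap1 (0.217) and Atp13a2 (0.228). Those most like Tcf4 were Atxn10 (0.127), Rab3il1 (0.144) and Slc15a4 (0.152), the last an endolysosomal transporter that pDCs need for TLR signalling. The values most like Siglech were those of BC035044 (0.189), Fam110a (0.211) and Asb8 (0.236), and those most like Bst2 began with Fdps (0.122). The same 9 samples, with their tissues and depths, underlie all these values, and likeness is given as a description only.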

How the data were processed

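Bulk RNA-seq of sorted pre-cDCs was analysed in 9 samples, grouped by the tissue and genotype in their labels. Libraries were prepared from ribosomal RNA-depleted total RNA for DNBSEQ sequencing. Per the submitters' processing notes, Trimmomatic 0.36, STAR 2.5.2, RSEM 1.3.0, DESeq2 1.18.1, R 3.4.3 and GRCm38 were used, in an order not given in the sources used here. The authors deposited expected counts for 51912 genes, not normalized, which were rounded before testing because the design had assumed whole counts. The deposited table of variance-stabilised values was not used.

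Differences were fitted across all genes in R 4.3.3 with edgeR 4.0.16 (TMM, filterByExpr, quasi-likelihood test, Benjamini-Hochberg threshold 0.05): BM genotypes over 6 samples, tissues over 9 with genotype as a covariate, and their interaction. Alternative tests were limma-voom (limma 3.58.1) and DESeq2 1.42.0. Log2 CPM values outside the fits used a prior count of 2. Depth puts 3 counts, the limit used for a count of 0, at 0.126 to 0.175 CPM before TMM, covering counting error only. Samples were numbered as labelled. Each was a pool of 2 mice, and p-values measure the spread between these pools, which the fits treat as independent. The total of mice in the paper's legend is smaller than separate pools would need, so by that legend some pools shared mice. Which pools did is not stated, and the main fits take no account of it. No replicates were close enough to be 1 library (chi-square per gene 28.9 to 257). The score of chromosome 1 congenic genes described in the methods goes together with genotype and was an alternative only.

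Symbols, positions and exon lengths came from GENCODE M21 (51633 of 51912 identifiers matched) and promoters from RefSeq, GRCm38.p6, cut to the 250 bases before the start. Of the 8 genes, 6 had an entry, and Ptprs had 2 windows. The members and all gene lists were chosen with earlier results of these data known, and a gene that is not reported here was left out of the interferon-stimulated list afterwards. Genes named are the 8 members, genes of the lists, and the 3 most alike genes of each member. On simulated counts with known changes, the BM comparison recovered 4% of genes given a log2 change of 1 and 65% at 2 (12620 genes), the tissue comparison 1% and 22% (13020 genes), and 0 were called with none changed. Alternatives were other tests, filters, scalings and covariates, the replicate number as a block, and each sample left out in turn.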

Additional observations from a re-analysis of the deposited data

How the results depend on the processing

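The BM comparison called 0 of the 8 genes under every alternative run, while the tissue comparison called 1 gene, and 4 with DESeq2, 2 each with limma-voom, without a filter on low counts, with at least 10 counts in every sample (7 genes tested), with the replicate number as a block and without the genotype term; leaving out 1 sample gave 1 to 4. Runx2 was called in all of these. Added calls were Ly6d (limma-voom, no filter, no genotype term), Pacsin1 (at least 10 counts, adjusted p = 0.00997 by edgeR), Spib under the block (-1.23, adjusted p = 0.0494 by edgeR), Ly6d, Pacsin1 and Ptprs without DNGR-1 KO spleen sample 1 (adjusted p = 0.00104, 0.0434 and 0.0417 by edgeR), and Spib without DNGR-1 KO spleen sample 2 (adjusted p = 0.0417 by edgeR). The interaction called 0, and 0 to 1 with 1 sample left out: Siglech without DNGR-1 KO spleen sample 1 (-2.29, adjusted p = 0.0146 by edgeR) and Ly6d without sample 2 (adjusted p = 0.00957 by edgeR). The cause of these changes was not tested.

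Signs turned only for values that had not passed. Scaled to the summed pre-cDC markers, an alternative chosen after seeing the data that moved the median of all genes in BM from 0.00 to -0.50, the BM values were -0.13 for Siglech, -0.41 for Bst2, -0.29 for Runx2 and -0.41 for Ptprs. With the congenic score Ptprs was -0.014. With 1 BM sample left out, Tcf4 ran from -0.097 to 0.066, Ly6d from -0.478 to 0.198, Runx2 from -0.005 to 0.282 and Ptprs from -0.155 to 0.189. Between tissues Bst2 was -0.36 in DNGR-1 KO samples alone and ran from -0.353 to 0.257 with 1 sample left out, and Tcf4 from -0.542 to 0.081. In the interaction, Spib was 0.17 under the block, the pre-cDC scaling gave 0.058 for Bst2, 0.01 for Tcf4, 0.84 for Spib and 0.57 for Runx2 (median of all genes 1.28 in place of 0.29), and leaving out 1 sample gave -1.029 to 0.41 for Spib, -0.342 to 0.604 for Ptprs and -0.565 to 0.735 for Pacsin1. The interaction without WT spleen could not be fitted.

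Over all genes, the tissue comparison called 2631, and 3946 with DESeq2, 1762 with at least 10 counts (44.6% of them lower in place of 62.8%) and 1246 under the block; the interaction called 1192, and 2195 with DESeq2, 635 under the block, 167 with at least 10 counts and 0 with limma-voom. Deviations of same-numbered BM samples correlated weakly (r = 0.103, 0.099 and -0.082). S100a8 did follow the number, at 179.2, 11.79 and 42.25 CPM in WT BM and 147.5, 14.29 and 41.02 CPM in DNGR-1 KO BM. S100a9 and Sdc1 also kept their order of numbers in both genotypes. Of the 8 genes, Ly6d and Runx2 did so, and the other members did not. Genes such as Kit did not follow the number either. The labels do not state whether a number marks the same mice. The paper's legend counts fewer mice in total than separate pools for every sample would need, so by that legend some samples shared mice. Which samples are paired in this way is not stated, and the number entered only as a block in an alternative fit. Among the 8 genes the block changed no call other than that of Spib. The limits are the 3 spleen samples, 1 of them WT, and the low counts of Pacsin1 and, in spleen, Ly6d.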
